A study of Homo sapiens with 16 samples.

Results

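Aldo-keto reductases are described here through 6 human genes, AKR1C1, AKR1C2, AKR1C3, AKR1B10, AKR1B1 and AKR1A1, which are 6 of the 44591 gene rows deposited for NCI-H1688, an established line from a human small cell lung carcinoma. They were chosen by symbol, and every one of the 6 had a row in both deposited tables. The choice was made with the high level of AKR1C1 and AKR1C2 in cells given sanguinarine alone already known. Values of sanguinarine alone against other groups are therefore given as a description with no test. Other contrasts are tested, in a model that holds all libraries and gives them a shared spread, and those of cepharanthine and evodiamine over control use the same control libraries as the contrast behind the choice.

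RNA was sequenced from 8 groups of 2 libraries, which the labels call biological duplicates. The first table held cells given the plant alkaloids sanguinarine (1 µM), cepharanthine (3 µM) or evodiamine (3 µM), and the control, which the libraries' labels call untreated and the series' design calls DMSO. The second table held sanguinarine chloride (1 µM) with (+)-JQ-1 (28 µM, a BET bromodomain inhibitor, written JQ1 here), JQ1 alone, sanguinarine chloride with panobinostat (60 nM, a histone deacetylase inhibitor) and panobinostat alone. Treatment lasted 24 h, all cells came from the same line, and RNA was selected on poly(A). The second table had no control, so across the tables the table and the drug cannot be told apart, and each comparison stays within a table.

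Libraries held 39996881 to 64060919 counted reads. The 4 epithelial markers summed to 3622 to 3837 CPM (counts scaled to the library total) with sanguinarine and JQ1, 7934 to 8119 CPM with JQ1 alone, 3909 to 3910 CPM with sanguinarine and panobinostat, 4846 to 4932 CPM with panobinostat alone and 3699 to 4248 CPM across the first table. YAP1 stood at 77.6 to 297 CPM. Of the factors that mark neuroendocrine small cell cancer, NEUROD1 had 0 counts in every library and INSM1 did not exceed 0.121 CPM. The 8 neuroendocrine markers summed to 104 to 137 CPM with sanguinarine and panobinostat, 62.4 to 66.0 CPM with panobinostat alone and 1.24 to 9.41 CPM in the other groups. SYP and NCAM1 carried most of that sum, reaching 35.3 and 97.1 CPM. The 4 leukocyte markers summed to 12.9 to 16.5 CPM in the panobinostat groups and 0.563 to 3.99 CPM in the others, carried by CD14, while PTPRC did not exceed 0.218 CPM. The 5 fibroblast and endothelial markers, mostly COL1A1, summed to 37.7 to 38.8 CPM with sanguinarine and JQ1, 44.5 to 45.5 CPM with JQ1 alone, 88.6 to 116 CPM with sanguinarine and panobinostat, 61.5 to 74.2 CPM with panobinostat alone and 26.7 to 38.3 CPM across the first table. The part of these shifts in the results of the second table was not tested. Duplicates of sanguinarine with panobinostat stood further apart than those of other groups, with a chi-square of 83.8 for each degree of freedom over genes, against 4.92 to 27.2 elsewhere.

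Aldo-keto reductases are soluble enzymes that use NADPH to reduce aldehydes and ketones to alcohols. The AKR1C enzymes act on steroids, prostaglandins and products of lipid peroxidation, and the AKR1B enzymes on glucose, retinal and lipid aldehydes. In human lung cells AKR1C1, AKR1C2, AKR1C3 and AKR1B10 are known targets of NRF2, a transcription factor that KEAP1 holds down until electrophiles or oxidants release it, and NRF2 acts at antioxidant response elements in DNA.

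The AKR1C genes lie together on chromosome 10, and their upstream sequences are shown because these genes moved together in several comparisons and because their likeness bears on how reads can be assigned. Each line gives the 250 bases before the transcript start from RefSeq on GRCh38.p14, written 5′ to 3′ on the gene's own strand. Windows were found for 5 of the 6 genes. The entry for AKR1C1 is chr10:4963165-4963414 on the plus strand, that for AKR1C2 chr10:5003858-5004107 on the minus strand, and that for the first listed start of AKR1C3 chr10:5048531-5048780 on the plus strand. Capitals mark matches to the motifs searched on both strands.
AKR1C1: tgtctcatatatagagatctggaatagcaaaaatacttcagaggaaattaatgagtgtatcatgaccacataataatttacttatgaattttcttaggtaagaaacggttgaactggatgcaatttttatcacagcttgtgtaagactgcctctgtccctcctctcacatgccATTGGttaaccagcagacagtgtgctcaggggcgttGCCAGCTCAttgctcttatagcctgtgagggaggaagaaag
AKR1C2: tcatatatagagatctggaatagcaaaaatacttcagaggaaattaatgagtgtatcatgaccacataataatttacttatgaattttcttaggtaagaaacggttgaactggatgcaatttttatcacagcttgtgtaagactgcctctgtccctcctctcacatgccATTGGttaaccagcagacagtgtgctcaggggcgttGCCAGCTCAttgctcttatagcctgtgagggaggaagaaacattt
AKR1C3: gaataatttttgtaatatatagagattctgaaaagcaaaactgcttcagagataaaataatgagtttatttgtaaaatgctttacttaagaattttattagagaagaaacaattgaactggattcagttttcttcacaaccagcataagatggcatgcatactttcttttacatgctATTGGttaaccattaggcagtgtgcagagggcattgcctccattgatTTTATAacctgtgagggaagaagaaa

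The windows of AKR1C1 and AKR1C2 were identical at 245 of 246 aligned bases (99.6%), and those of AKR1C1 and AKR1C3 at 185 of 241 (76.8%). TGAGNNNGC, one form of the antioxidant response core, was found on the reverse strand as GCCAGCTCA in AKR1C1, from 41 bases before the start, and in AKR1C2, from 45 bases before it. It was in no other window of these genes, and 14.8% of 35116 human windows of the same length held it. The other form, TGACNNNGC, was in none of the windows of the 5 genes and in 10.9% of all windows, and TGANTCA, an AP-1 motif, was likewise in none of them and in 6.57% of all. CCAAT was found on the reverse strand, as ATTGG, in AKR1C1, AKR1C2 and both AKR1C3 windows. It was on the gene's own strand in one AKR1B1 window, and 32.0% of all windows held it on either strand. TATAAA was found on the reverse strand, as TTTATA, in the first AKR1C3 window, against 10.7% of all on either strand. The motifs as spelled do not overlap each other in these windows. A match of letters is a description and shows no binding. Bases further upstream were not searched, so a motif missing from a window may still lie elsewhere near the gene.

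The coding sequences were close as well. AKR1C1 and AKR1C2 were identical at 950 of 969 coding bases (98.0%), and AKR1C1 and AKR1C3 at 886 of 969 (91.4%). Of the 920 coding stretches of 50 bases in AKR1C1, 475 (51.6%) occurred unchanged in AKR1C2 and 135 (14.7%) in AKR1C3. AKR1B10 and AKR1B1 were identical at 77.1% of aligned coding bases and shared no stretch of 50. Values of AKR1C1 and AKR1C2 are therefore uncertain to the extent that the authors' counting split reads between near-identical copies. AKR1C2 also overlaps an antisense gene, which held at most 15 counts in any library, and AKR1A1 overlaps a tRNA gene with at most 3. The strand setting of the counting is not given in sources used here.

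AKR1C1, which inactivates progesterone, is given in RPKM, the deposited unit of reads per kilobase of gene model, scaled to the counted reads of the library. Its level was 88.7 and 72.1 RPKM with sanguinarine, 4.67 and 3.71 RPKM with cepharanthine and 3.10 and 3.17 RPKM with evodiamine, against 1.61 and 1.41 RPKM in the control. All alkaloid libraries stood above both control libraries, and the sanguinarine libraries stood apart from the rest of their table. In the second table it was at 34.8 and 37.4 RPKM with sanguinarine and JQ1, against 2.47 and 2.63 RPKM with JQ1 alone. With sanguinarine and panobinostat it was at 6.34 and 9.80 RPKM, against 4.55 and 5.65 RPKM with panobinostat alone. No group overlapped its neighbour in either order, although the gap between panobinostat with and without sanguinarine was smaller than the distance between the combination's own duplicates.

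AKR1C2, which converts dihydrotestosterone to a weaker steroid, stood at 11.5 and 10.4 RPKM with sanguinarine, 1.52 and 1.24 RPKM with cepharanthine and 1.06 and 1.01 RPKM with evodiamine, against 0.617 and 0.590 RPKM in the control. The order of groups in the first table was that of AKR1C1. In the second table the order was another one, with both panobinostat groups on top. AKR1C2 was at 1.19 and 1.37 RPKM with sanguinarine and JQ1, against 0.220 and 0.320 RPKM with JQ1 alone. It was at 3.29 and 4.55 RPKM with sanguinarine and panobinostat, against 3.05 and 3.23 RPKM with panobinostat alone.

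AKR1C3, which makes testosterone and reduces prostaglandins, stood at 9.85 and 7.22 RPKM with sanguinarine, 1.95 and 1.37 RPKM with cepharanthine and 2.18 and 1.79 RPKM with evodiamine, against 0.805 and 0.797 RPKM in the control. Cepharanthine and evodiamine libraries overlapped each other and lay above the control. In the second table AKR1C3 was at 9.46 and 10.8 RPKM with sanguinarine and JQ1, against 2.89 and 2.88 RPKM with JQ1 alone. It was at 10.4 and 17.7 RPKM with sanguinarine and panobinostat, against 10.5 and 11.9 RPKM with panobinostat alone. Here JQ1 alone was low, and the other groups of that table overlapped.

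AKR1B10, which reduces retinal and lipid aldehydes, was near the limit of detection and is given in counts. Sanguinarine libraries had 30 and 44 counts, cepharanthine libraries 1 and 0, evodiamine libraries 52 and 50, and control libraries 2 and 0. It had 16 and 7 counts with sanguinarine and JQ1, against 0 and 3 with JQ1 alone, and 146 and 150 with sanguinarine and panobinostat, against 47 and 51 with panobinostat alone. Cepharanthine, the control and JQ1 alone were thus at 0 to 3 counts a library, and the other groups were above them. A library with 0 counts allows a level of up to 0.0468 to 0.0750 CPM (3 counts of the total), which covers counting error only. The gene passed the filter on low counts through the groups in which it was high, so it is described by its counts and their ratios, with no test, and the tests cover the other 5 genes.

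AKR1B1, aldose reductase, which turns glucose into sorbitol, had the highest level of the 6 per length in every library. It was at 89.7 and 88.2 RPKM with sanguinarine, 52.9 and 49.1 RPKM with cepharanthine and 57.8 and 59.2 RPKM with evodiamine, against 56.6 and 56.1 RPKM in the control. It was at 102 and 97.7 RPKM with sanguinarine and JQ1, against 64.0 and 64.9 RPKM with JQ1 alone. It was at 153 and 166 RPKM with sanguinarine and panobinostat, against 132 and 141 RPKM with panobinostat alone. Sanguinarine libraries stood above the rest of the first table, where AKR1C1 came to a level like that of AKR1B1.

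AKR1A1, an aldehyde reductase made in most tissues, varied least in proportion. It was between 20.8 and 22.6 RPKM in all libraries of the first table. It was at 22.5 and 24.9 RPKM with sanguinarine and JQ1, against 23.9 and 24.0 RPKM with JQ1 alone, which overlap. It was at 31.9 and 28.6 RPKM with sanguinarine and panobinostat, against 37.4 and 37.8 RPKM with panobinostat alone, which do not.

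**Figure D1:**
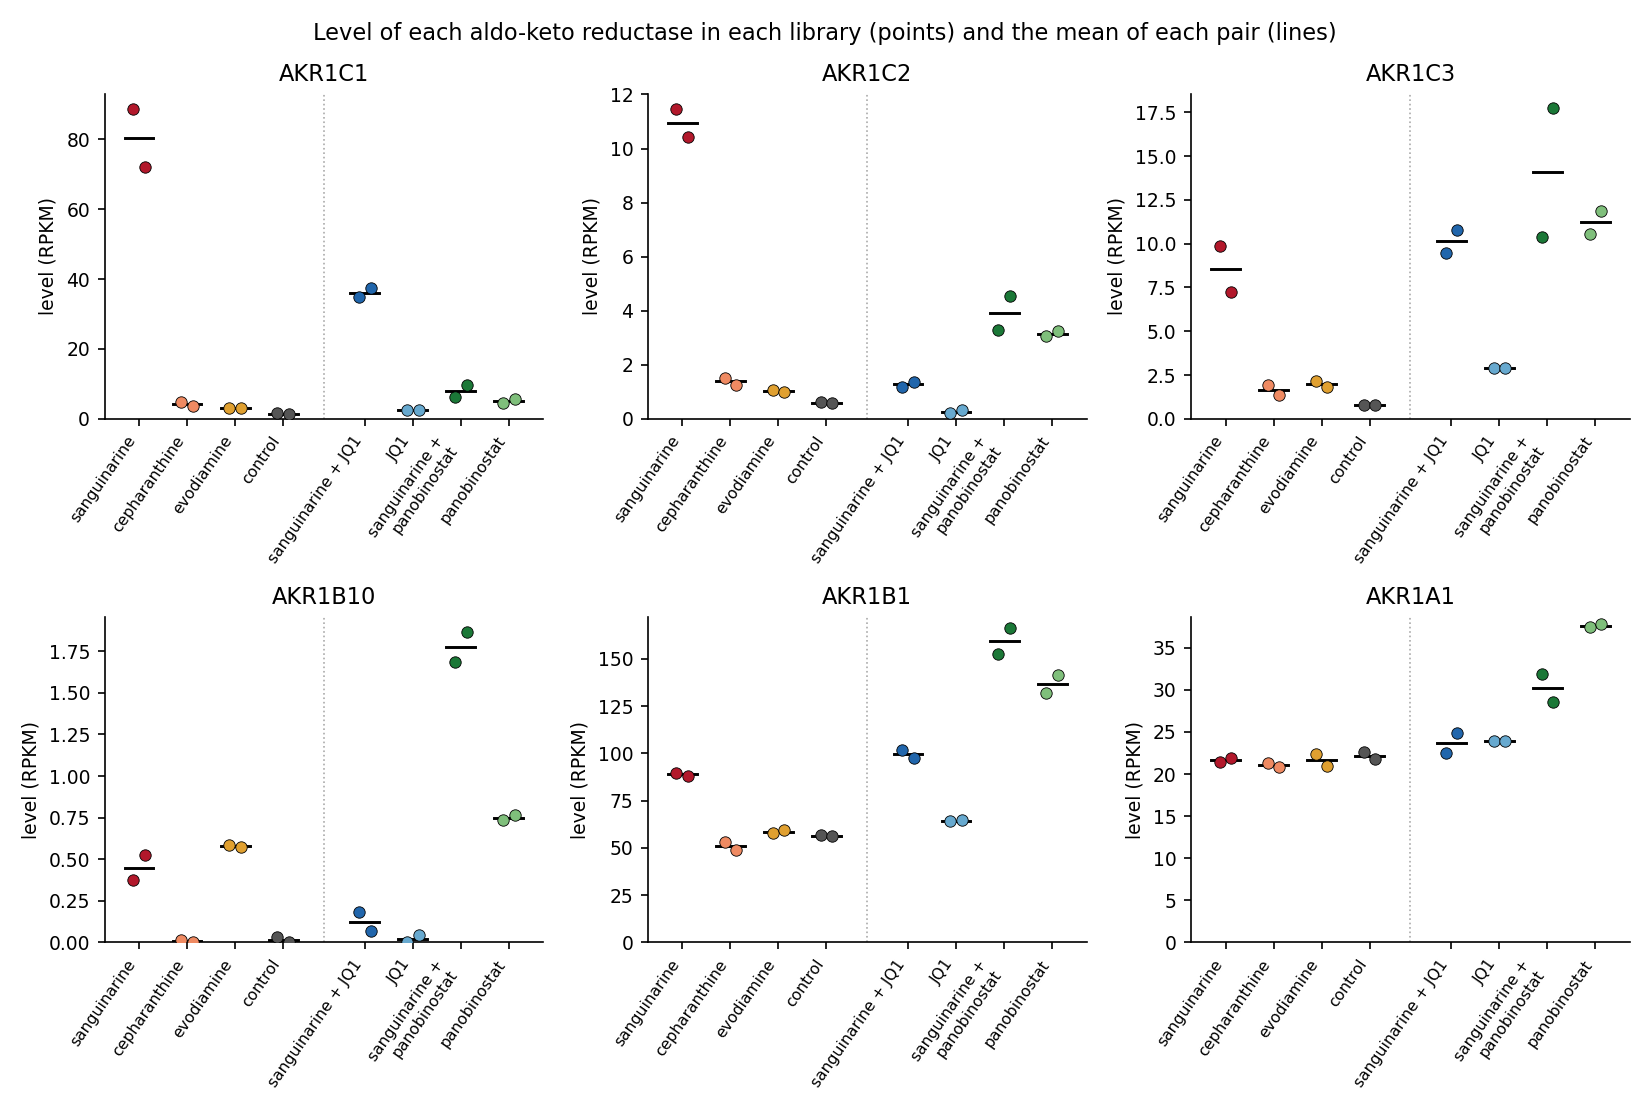
Level of each gene in RPKM (vertical axis, linear from 0) in each library (points), with the mean of each pair as a line; the dotted line separates the first table (left) from the second. AKR1C1 is at 88.7 and 72.1 RPKM with sanguinarine, against 1.61 and 1.41 RPKM in the control, while AKR1A1 stays between 20.8 and 22.6 RPKM across the first table.

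Fitted log2 changes from a single edgeR model of all libraries, with standard errors (±), describe sanguinarine alone. Over control, AKR1C2 was higher by 4.05 ± 0.18, AKR1C3 by 3.28 ± 0.24 and AKR1B1 by 0.52 ± 0.09, and AKR1A1 differed by -0.17 ± 0.10. AKR1C1 was 48.6-fold higher, the largest change of the 5 genes with more than a few counts in each group. AKR1B10 summed to 74 counts with sanguinarine and 2 in the control, a ratio of 34.9 per counted read with an exact 95% interval of 9.32 to 293 that covers counting error only. In this contrast 22.0% of the 22263 genes tested were called (adjusted p under 0.05), and nothing is read from these changes since they led to the choice. The doses of the alkaloids differ, and beside the control-based values the fitted change of sanguinarine over cepharanthine was 4.16 ± 0.18 for AKR1C1 and 2.26 ± 0.22 for AKR1C3. Over evodiamine it was 4.60 ± 0.18 for AKR1C1 and 2.03 ± 0.22 for AKR1C3, while AKR1B10 had 74 counts with sanguinarine and 102 with evodiamine.

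Cepharanthine alone raised the 3 AKR1C genes. AKR1C1 rose by 1.45 ± 0.20 on the log2 scale over control (adjusted p = 8.73e-05), AKR1C2 by 1.17 ± 0.18 (adjusted p = 0.000387) and AKR1C3 by 1.02 ± 0.25 (adjusted p = 0.0252). Among all genes tested, 2.60% rose in this contrast. AKR1B10 summed to 1 count with cepharanthine and 2 in the control, and AKR1B1 and AKR1A1 changed by -0.17 (95% interval -0.35 to 0.01) and -0.11 (-0.32 to 0.11) without passing. The call on AKR1C3 was lost without control replicate 1, control replicate 2 or cepharanthine replicate 1, with adjusted p of 0.155, 0.181 and 0.287.

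Evodiamine alone raised the 3 AKR1C genes as well, where 5.30% of all genes tested rose. AKR1C3 rose by 1.25 ± 0.25 (adjusted p = 0.00213), AKR1C1 by 1.00 ± 0.20 (adjusted p = 0.00222) and AKR1C2 by 0.72 ± 0.18 (adjusted p = 0.0130). AKR1B10 summed to 102 counts with evodiamine and 2 in the control, a ratio of 44.9 with an exact counting interval of 12.1 to 376. AKR1B1 changed by -0.0022 (95% interval -0.18 to 0.18) and AKR1A1 by -0.09 (-0.30 to 0.12), and neither passed. The call on AKR1C2 was lost without either evodiamine library or either control library, with adjusted p of 0.0637 to 0.110. The control libraries are shared by these alkaloid contrasts.

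Set against each other at the same dose and time, cepharanthine and evodiamine had unequal counts of AKR1B10. It had 1 count with cepharanthine and 102 with evodiamine, a ratio of 0.010 with an exact counting interval of 0.000252 to 0.0572. Of all genes tested, 5.79% were called lower with cepharanthine. AKR1C1 differed by 0.44 (95% interval 0.07 to 0.82, adjusted p = 0.110) and AKR1C2 by 0.44 (0.09 to 0.80, adjusted p = 0.0901), with cepharanthine above evodiamine in every library of both genes. These passed in a fit of the first table alone, with adjusted p of 0.00933 and 0.00811. AKR1C3 differed by -0.23 (-0.71 to 0.24) and did not pass.

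Adding sanguinarine to JQ1 raised AKR1C1, AKR1C2, AKR1C3 and AKR1B1. AKR1C1 rose by 3.74 ± 0.18 over JQ1 alone (13.4-fold, adjusted p = 1.47e-11) and AKR1C2 by 2.17 ± 0.20 (4.49-fold, adjusted p = 1.19e-07). AKR1C3 rose by 1.73 ± 0.21 (3.32-fold, adjusted p = 4.04e-06) and AKR1B1 by 0.55 ± 0.09 (1.46-fold, adjusted p = 6.47e-05). In this contrast 16.2% of all genes tested rose. AKR1B10 summed to 23 counts with sanguinarine and JQ1 and 3 with JQ1 alone, a ratio of 5.39 with an exact counting interval of 1.63 to 28.1. AKR1A1 changed by -0.09 (95% interval -0.31 to 0.12, adjusted p = 0.529). The epithelial marker sum was lower with the combination than with JQ1 alone, as given above, and its part in these changes was not tested.

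Adding sanguinarine to panobinostat moved AKR1C1 and AKR1A1 past the threshold. AKR1C1 rose by 0.54 ± 0.17 over panobinostat alone (1.45-fold, adjusted p = 0.0279) and AKR1A1 fell by 0.43 ± 0.10 on the log2 scale (adjusted p = 0.00474), where 11.5% of all genes rose and 11.4% fell. AKR1C2 changed by 0.20 (95% interval -0.13 to 0.53), AKR1C3 by 0.20 (-0.21 to 0.61) and AKR1B1 by 0.11 (-0.07 to 0.29), none of which passed. AKR1B10 summed to 296 counts with sanguinarine and panobinostat and 98 with panobinostat alone, a ratio of 2.36 with an exact counting interval of 1.87 to 3.00. The rise of AKR1C1 did not pass without panobinostat replicate 1 (0.37, adjusted p = 0.256), panobinostat replicate 2 (0.67, adjusted p = 0.0584) or replicate 2 of the combination (0.24, adjusted p = 0.271), nor in a fit of the second table alone (adjusted p = 0.0982). In a fit of the compared groups alone neither AKR1C1 (adjusted p = 0.203) nor AKR1A1 (adjusted p = 0.121) passed. Without replicate 2 of the combination AKR1C3 changed by -0.18, and without replicate 1 of the combination by 0.50 (adjusted p = 0.0325).

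The difference between these additions was tested in the same model. Adding sanguinarine changed AKR1C1 by 3.21 ± 0.25 more with JQ1 than with panobinostat (adjusted p = 5.72e-08), AKR1C2 by 1.97 ± 0.26 more (adjusted p = 3.90e-05) and AKR1C3 by 1.53 ± 0.29 more (adjusted p = 0.00151). AKR1B1 changed by 0.44 ± 0.12 more (adjusted p = 0.0221), while 6.84% of all genes had a difference called in that direction. The call on AKR1B1 was lost in a fit of the second table alone (adjusted p = 0.103), and without JQ1 replicate 2, panobinostat replicate 2 or replicate 1 of sanguinarine with JQ1 (adjusted p of 0.0853, 0.0827 and 0.0642). AKR1A1 (0.33, 95% interval 0.03 to 0.63) did not pass, although it did without replicate 1 of sanguinarine with panobinostat (0.46, adjusted p = 0.0105). The levels without sanguinarine were unequal. These differences are in proportion, and a difference in RPKM gained was not tested. AKR1C3 averaged 10.1 ± 0.96 RPKM with sanguinarine and JQ1, against 2.89 ± 0.01 RPKM with JQ1 alone (SD, n = 2 each). It averaged 14.1 ± 5.18 RPKM with sanguinarine and panobinostat, against 11.2 ± 0.96 RPKM with panobinostat alone.

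**Figure D2:**
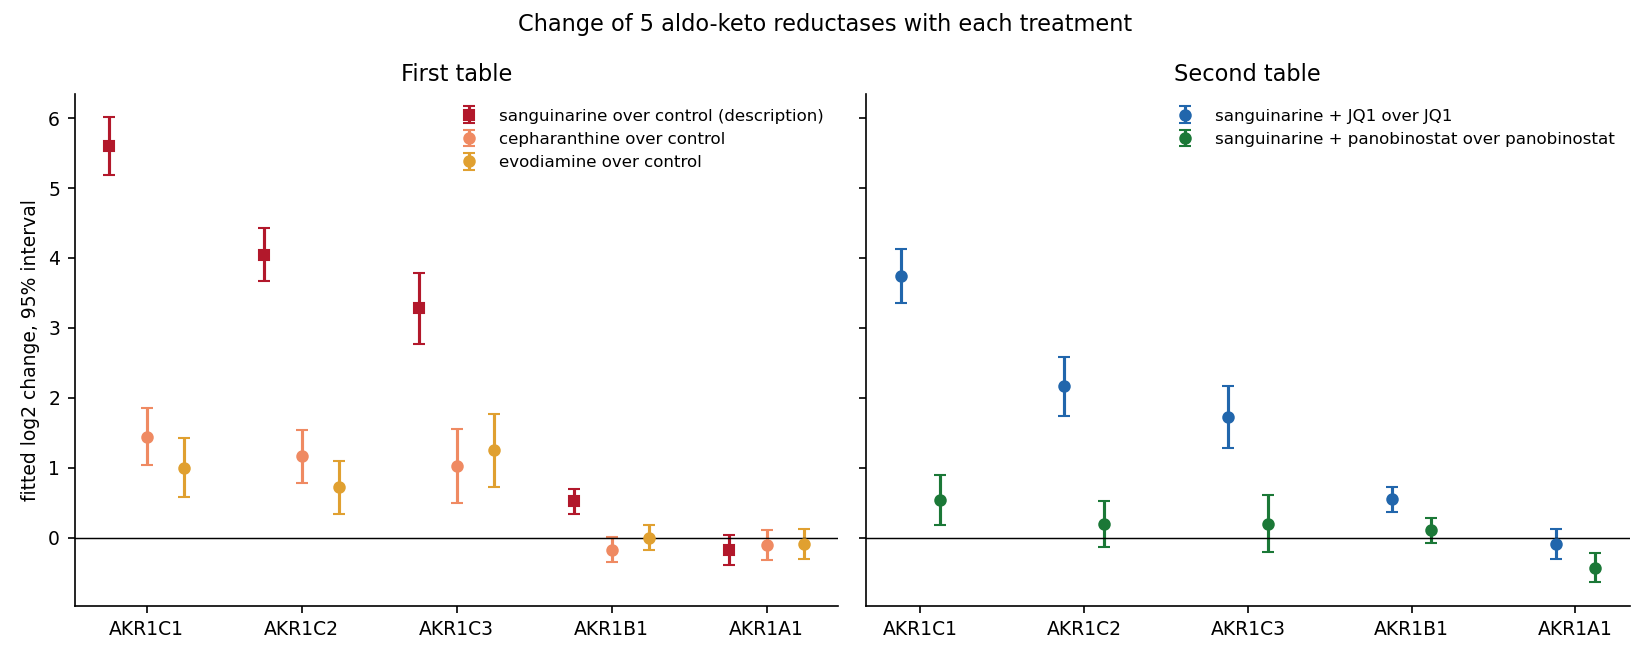
Fitted log2 change (vertical axis) with its 95% interval for 5 genes in the first table (left) and the second (right); AKR1B10 is left out because several groups had 0 to 3 counts, and squares mark the contrast given as a description. AKR1C1 changes by 3.74 when sanguinarine is added to JQ1 and by 0.54 when it is added to panobinostat, and AKR1A1 lies near 0 except in the panobinostat contrast.

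JQ1 and panobinostat alone differed in AKR1C1, AKR1C2, AKR1C3, AKR1B1 and AKR1A1, all lower with JQ1, where 29.1% of all genes tested were lower. AKR1C2 differed most among these, at -3.37 ± 0.20 (adjusted p = 3.20e-11), followed by AKR1C3 at -1.79 ± 0.21 (adjusted p = 5.33e-07). AKR1B1 differed by -0.92 ± 0.09, AKR1C1 by -0.84 ± 0.19 and AKR1A1 by -0.49 ± 0.10, with adjusted p of 2.15e-08, 0.000799 and 0.000417. AKR1B10 summed to 3 counts with JQ1 and 98 with panobinostat, a ratio of 0.0298 with an exact counting interval of 0.00605 to 0.0898. The neuroendocrine, leukocyte, epithelial and fibroblast and endothelial marker sums given above moved with this contrast too, and their part in it was not tested.

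Between the combinations the AKR1C genes split. With sanguinarine and JQ1, AKR1C1 was higher by 2.37 ± 0.16 than with sanguinarine and panobinostat (adjusted p = 4.46e-10), whereas AKR1C2 was lower, at -1.41 ± 0.16 (adjusted p = 4.68e-07). Of all genes tested, 25.4% were higher and 27.5% lower. AKR1B1 was lower as well, at -0.48 ± 0.09 (adjusted p = 9.56e-05), and AKR1B10 summed to 23 counts against 296 (ratio 0.0682, exact counting interval 0.0426 to 0.104). AKR1C3 differed by -0.26 (95% interval -0.67 to 0.15) and AKR1A1 by -0.15 (-0.36 to 0.06), and neither passed. Without replicate 1 of sanguinarine with panobinostat AKR1C3 differed by -0.56 (adjusted p = 0.00568), and without replicate 2 by 0.12, when AKR1A1 differed by -0.26 (adjusted p = 0.0247).

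The balance of AKR1C1 and AKR1C2 within a library followed the same split. The ratio of their RPKM was 7.73 and 6.93 in sanguinarine libraries, 3.07 and 2.99 in cepharanthine libraries and 2.93 and 3.15 in evodiamine libraries, against 2.61 and 2.40 in control libraries. It was 29.2 and 27.3 with sanguinarine and JQ1, against 11.2 and 8.22 with JQ1 alone, and 1.93 and 2.16 with sanguinarine and panobinostat, against 1.49 and 1.75 with panobinostat alone. Groups with sanguinarine did not overlap the same cells without it, and the JQ1 groups stood above the panobinostat groups. AKR1C1 made up 80.6% and 80.3% of the summed RPKM of the 3 AKR1C genes with sanguinarine, against 53.1% and 50.5% in the control. It made up 76.6% and 75.4% with sanguinarine and JQ1, against 44.2% and 45.1% with JQ1 alone, and 31.6% and 30.6% with sanguinarine and panobinostat, against 25.1% and 27.2% with panobinostat alone. The ratios depend on the gene-model lengths of the deposited table, 1379 bases for AKR1C1 and 4156 for AKR1C2: in counts, AKR1C1 had 96 and 105 in the control and AKR1C2 111 and 132. A length common to all libraries leaves the order of the groups as it is.

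**Figure D3:**
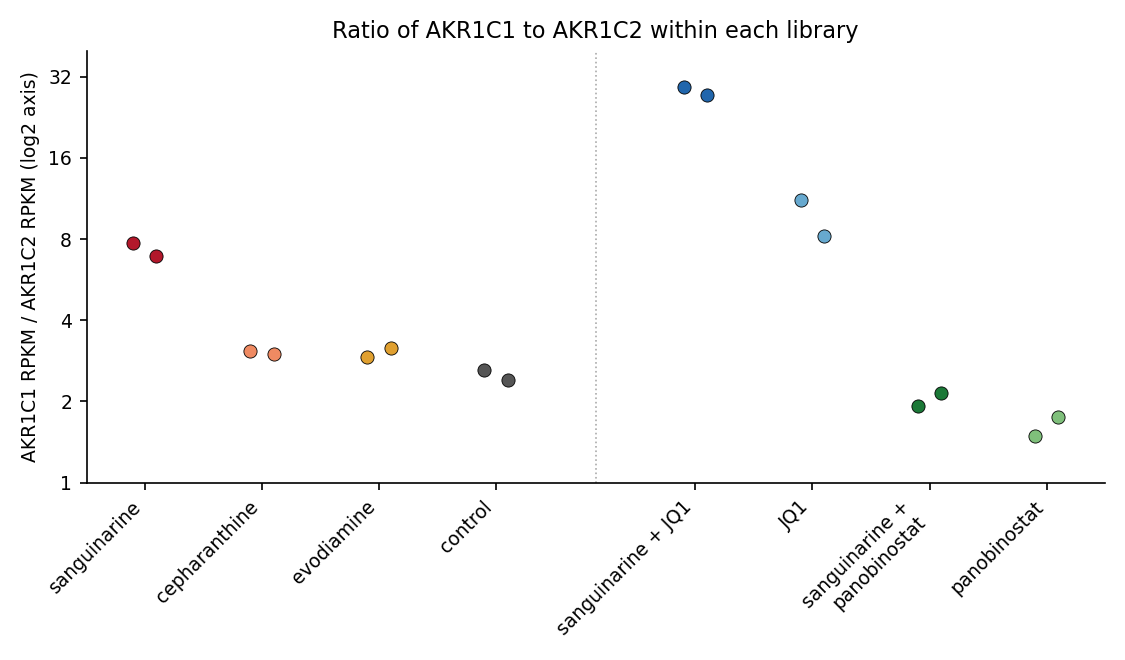
Ratio of AKR1C1 to AKR1C2 in RPKM (vertical axis, log2 spacing) in each library; the dotted line separates the first table (left) from the second. Sanguinarine with JQ1 is at 29.2 and 27.3, above JQ1 alone at 11.2 and 8.22, and panobinostat alone is lowest at 1.49 and 1.75.

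Genes most like each member were named by Pearson's r of log2 CPM over the 16 libraries after subtracting the mean of each table, as a description, since the points share libraries and depth. AKR1C1 was closest to FTH1, the ferritin heavy chain (r = 0.977), to the FTH1 pseudogene FTH1P8 (r = 0.977), whose reads may be those of FTH1, and to PTGR1, a prostaglandin reductase (r = 0.956). AKR1C2 was closest to ZSCAN30 (r = 0.982), AKR1C3 to AGR2 (r = 0.958), AKR1B10 to CCNA1 (r = 0.953), AKR1B1 to MOCS3 (r = 0.967) and AKR1A1 to LSM4 (r = 0.951). Each named gene is among the closest of many compared, so a high r is partly a result of that choice. AKR1B10 had 0 to 3 counts in control, cepharanthine and JQ1 libraries, so its r rests in part on libraries near the limit of detection. Among the members themselves AKR1C2 went with AKR1C3 (r = 0.946) and AKR1B1 (r = 0.909) more closely than with its near copy AKR1C1 (r = 0.719). AKR1A1 had the lowest value, -0.42, against AKR1C1.

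Other genes of the same chemistry were followed in fixed lists, each with its median log2 change beside that of all genes tested, which was 0.02 when sanguinarine was added to JQ1 and 0.06 when it was added to panobinostat.

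Of 11 other aldo-keto reductase genes, 9 had enough counts to test. With sanguinarine added to JQ1, and leaving AKR1B15 aside, 2 rose, 1 fell and 5 did not pass, where 16.2% of all genes rose and 13.8% fell. AKR1D1, among the 5, changed by -0.49 ± 2.12, an error too wide to tell a change from none. The median of all 9, AKR1B15 included, was 0.59. KCNAB1 and KCNAB2, beta subunits of potassium channels, rose by 1.37 ± 0.39 and 0.59 ± 0.15, and AKR7A2, which reduces succinic semialdehyde, fell by 0.64 ± 0.13. AKR1B15, a close relative of AKR1B10 that also passed the filter through the groups in which it was high, is given by its counts, 32 with sanguinarine and JQ1 and 2 with JQ1 alone. With sanguinarine added to panobinostat, none of the 9, AKR1B15 included, passed in edgeR (3 at an unadjusted p under 0.05) or in DESeq2 (median 0.83). That median fell on AKR7A3 (0.83 ± 0.65), and the largest changes had wide errors, 1.99 ± 1.18 for AKR1D1 and 1.96 ± 0.72 for AKR7L. The genes with the smallest errors, AKR7A2 and KCNAB2, changed by 0.06 ± 0.13 and 0.00011 ± 0.15. None passed in either tool with cepharanthine over control (1 at an unadjusted p under 0.05 in edgeR). In that contrast edgeR called 793 of all 22263 genes, so no call among 9 is not read as a lack of change. AKR7A2 alone passed with evodiamine over control, falling by 0.53 ± 0.13, where 6.13% of all genes fell. AKR1C4, the liver member of the AKR1C genes, had 2 or fewer counts in every group.

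Among 19 carbonyl and quinone reductases, 6 rose, 5 fell and 8 did not pass when sanguinarine was added to JQ1 (median 0.05), where 16.2% of all genes rose and 13.8% fell. DHRS9, among the 8, changed by 2.18 ± 1.27, an error too wide to tell a change from none. PTGR1 rose by 0.99 ± 0.10 and the quinone reductase NQO2 by 0.83 ± 0.11, while SORD, sorbitol dehydrogenase, fell by 0.91 ± 0.11 and CRYZ by 0.87 ± 0.19. Added to panobinostat, sanguinarine raised 3 and lowered 2, and 14 did not pass (median -0.15), where 11.5% of all genes rose and 11.4% fell. NQO1, a classical NRF2 target, rose there by 1.17 ± 0.10 and POR by 0.95 ± 0.15, and PTGR2 fell by 1.02 ± 0.17. With cepharanthine over control none of the 19 passed in edgeR (5 at an unadjusted p under 0.05) and 2 did in DESeq2. In that contrast edgeR called 793 of all 22263 genes, so no call among 19 is not read as a lack of change. With evodiamine over control DHRS11 and DHRS1 fell, by 1.05 ± 0.19 and 1.01 ± 0.12, where 6.13% of all genes fell.

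Aldehyde dehydrogenases, which oxidise aldehydes, mostly went down with sanguinarine and JQ1: 9 of 14 tested fell, 1 rose and 4 did not pass (median -0.51), where 13.8% of all genes fell and 16.2% rose. ALDH1A3, which makes retinoic acid, fell by 1.58 ± 0.11, ALDH3B1 by 1.55 ± 0.20 and ALDH7A1 by 1.02 ± 0.08. Added to panobinostat, sanguinarine lowered 3, raised 1 and left 10 not passing (median -0.24), where 11.4% of all genes fell and 11.5% rose, with ALDH6A1 falling by 0.66 ± 0.15 and ALDH1A3 rising by 0.42 ± 0.11. The change of ALDH1A3 differed between these additions by -2.01 ± 0.15 (adjusted p = 3.74e-08), in a direction called for 4.38% of all genes.

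Of 10 genes that supply NADPH, the cofactor of aldo-keto reductases, 3 rose, 1 fell and 6 did not pass when sanguinarine was added to JQ1 (median 0.06), where 16.2% of all genes rose and 13.8% fell. ME1, malic enzyme, rose by 0.86 ± 0.13 and PGD, of the pentose phosphate pathway, by 0.32 ± 0.10, while NNT of mitochondria fell by 0.91 ± 0.10. Added to panobinostat, sanguinarine raised 2 and lowered 3, and 5 did not pass (median -0.05), where 11.5% of all genes rose and 11.4% fell. PGD rose by 0.46 ± 0.10 and NADK by 0.45 ± 0.10, and NNT fell by 0.62 ± 0.10.

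In the NRF2 system, 14 of 15 genes rose and 1 did not pass when sanguinarine was added to JQ1 (median 0.93), where 16.2% of all genes rose. NFE2L2, the gene of NRF2 itself, did not pass (0.13 ± 0.09), and KEAP1 was among those that rose (0.78 ± 0.10). When sanguinarine was added to panobinostat, 5 rose, 3 fell and 7 did not pass (median 0.20), where 11.5% of all genes rose and 11.4% fell. Those that fell were NFE2L2 (-0.65 ± 0.09), GSR (-0.51 ± 0.10) and TXN (-0.48 ± 0.11). HMOX1, heme oxygenase, rose by 6.06 ± 0.12 and 4.43 ± 0.12 in these contrasts. The difference between the additions was called in 13 of the 15, all larger with JQ1. In that direction a difference was called for 6.84% of all genes. NQO1, counted above among the quinone reductases and not in this list, rose less with JQ1 (0.70 ± 0.10) than with panobinostat (1.17 ± 0.10). Against the control, 4 of the 15 rose with cepharanthine, where 2.60% of all genes rose, and 6 with evodiamine, where 5.30% rose.

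**Figure D4:**
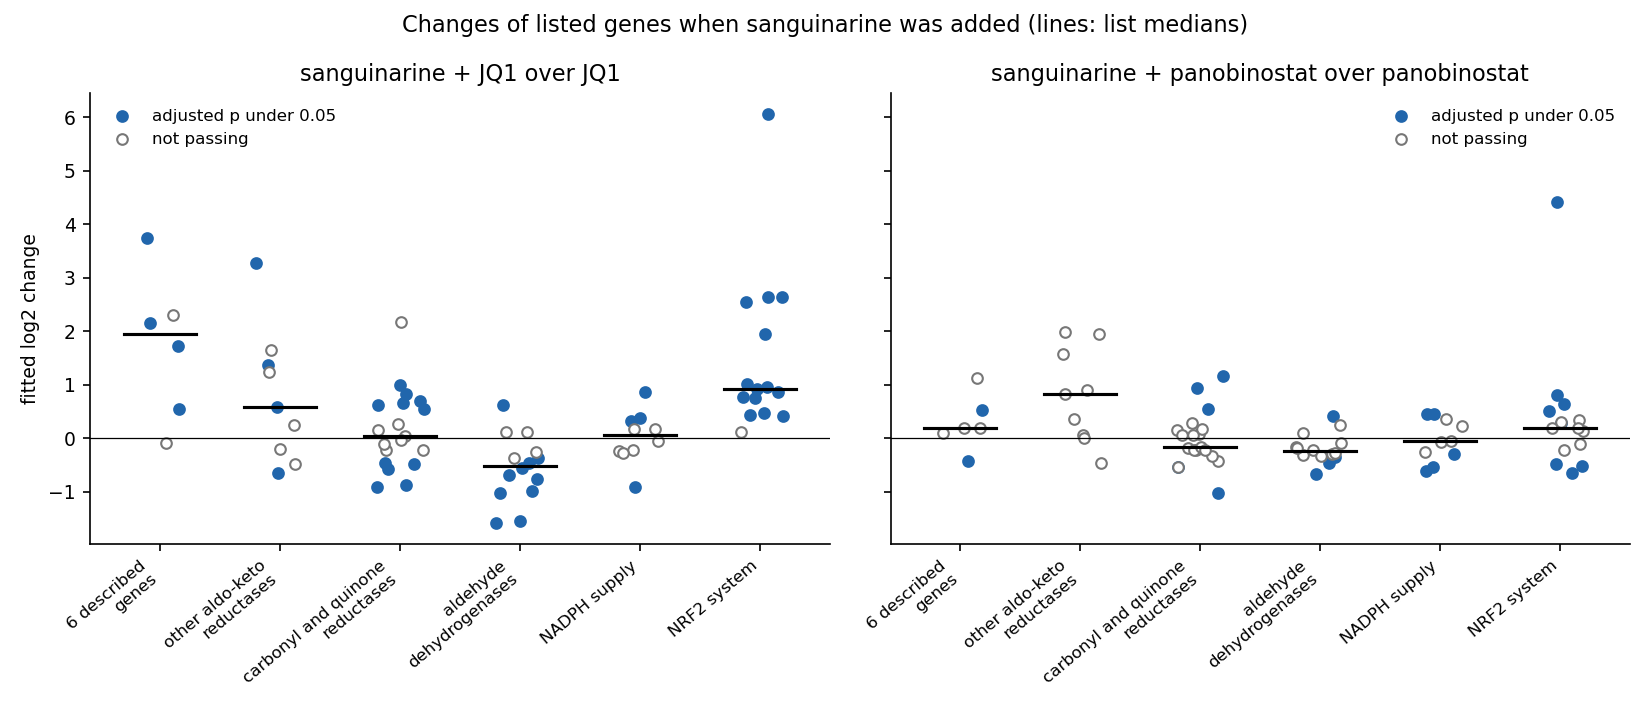
Fitted log2 change (vertical axis) of single genes (points) in the 6 genes described and in 5 lists. Sanguinarine was added to JQ1 (left) or to panobinostat (right). Filled points passed an adjusted p of 0.05 and lines are medians. AKR1B10 and AKR1B15 are drawn and enter the medians, but both passed the filter through the groups in which they were high. Nothing is read from whether their points are filled. The median of the NRF2 system is 0.93 on the left and 0.20 on the right, and that of the aldehyde dehydrogenases is -0.51 and -0.24.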

How the data were processed

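The deposited values are raw counts of reads, in whole numbers, in 2 tables of 16 libraries, and the deposited RPKM values equal those counts scaled to gene-model length and library total. Per the submitters' processing notes and the series' design, the authors aligned with STAR 2.5.1 against GRCh38, with a GENCODE annotation, and tested with DESeq2. Which tool counted the reads is not given in sources used here. Positions in the tables did not match GRCh38 genes and are not printed. RPKM depends on the library total, while fitted changes use TMM scaling, so small changes can differ between them.

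Counts of all 16 libraries were fitted with edgeR 4.0.16 (R 4.3.3), by its quasi-likelihood method with 1 coefficient for each group, TMM scaling and filterByExpr, which left 22263 genes. Benjamini-Hochberg adjustment ran over all of them within a comparison, and an adjusted p under 0.05 is a call. Standard errors are the size of the log2 change over the root of its F statistic, and intervals are 95%. The spread is shared by all groups, so intervals for sanguinarine with panobinostat may be too narrow. With 2 libraries a group, whose cultures the labels do not detail further, p-values measure the spread between these libraries. The fit was tested on simulated counts that had the same spread in every group, so that test does not cover groups of unequal spread.

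The genes, lists and comparisons were chosen with earlier results of these data known. All 6 genes are named, and from each list at most the 4 called genes with the largest change in a comparison. Beyond that, NQO1, DHRS9, some genes of the NRF2 list and some other aldo-keto reductases are named where they limit the reading of a list. Likeness used log2 CPM with a prior count of 2. Exact intervals of count ratios are Clopper-Pearson and cover counting error alone, because PCR reads that carry no molecular identifier are not independent. Sequences come from RefSeq (GRCh38.p14, upstream windows) and GENCODE 44 (coding sequences of MANE Select transcripts), aligned with Biopython 1.88. Alternatives were DESeq2 1.42.0 size factors and test, no filter, fewer libraries in the fit, a replicate block and each library left out. Replicate numbers in the second table's titles did not pair the libraries: correlations of same-numbered deviations were -0.03 to 0.08. Values of some listed genes are not reported here.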

Additional observations from a re-analysis of the deposited data

Results flagged for a closer look

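The effect of adding sanguinarine differed between cells given JQ1 and cells given panobinostat for 4 genes, by a test of the difference itself in the edgeR model. The difference in log2 change was 3.21 for AKR1C1, 1.97 for AKR1C2, 1.53 for AKR1C3 and 0.44 for AKR1B1. The call on AKR1B1 was lost in a fit of the second table alone (adjusted p = 0.103) and without JQ1 replicate 2, panobinostat replicate 2 or replicate 1 of sanguinarine with JQ1 (adjusted p of 0.0853, 0.0827 and 0.0642). In RPKM, AKR1C1 averaged 36.1 ± 1.80 with sanguinarine and JQ1, against 2.55 ± 0.11 with JQ1 alone, and 8.07 ± 2.45 with sanguinarine and panobinostat, against 5.10 ± 0.78 with panobinostat alone (SD, n = 2 each). AKR1C2 averaged 1.28 ± 0.12 with sanguinarine and JQ1, against 0.27 ± 0.07 with JQ1 alone. It averaged 3.92 ± 0.89 with sanguinarine and panobinostat, against 3.14 ± 0.13 with panobinostat alone. The levels without sanguinarine were thus unequal. The differences are in proportion, and a difference in RPKM gained was not tested.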

How the results depend on the processing

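For the 6 genes over 11 comparisons there were 640 alternative values. Of these, 591 stayed the same, 17 lost a call, 14 gained one, 4 moved (all of AKR1B10, where groups had 0 to 2 counts) and 14 changed sign. In 8 comparisons, staying the same meant keeping direction and side of the threshold. In the 3 comparisons of sanguinarine alone, which carry no test, it meant keeping direction and shifting by less than the spread of the duplicates. The tally above and the counts of calls that follow include AKR1B10. That gene passed the filter on low counts through the groups in which it was high, so the tally and these counts support nothing. The number of genes called between cepharanthine and evodiamine went to 4 in a fit of the first table alone and 3 in a fit of the compared groups alone, from 1. With sanguinarine added to panobinostat it was 2, went to 1 in either smaller fit, and ran from 1 to 3 with single libraries left out. With single libraries left out it ran from 2 to 3 for cepharanthine over control, was 3 for evodiamine over control and 6 for JQ1 over panobinostat, and ran from 4 to 5 for sanguinarine added to JQ1 and for the combinations compared, and from 3 to 5 for the difference of the additions. No value with a changed sign passed. AKR1B1 with evodiamine over control was 0.0037 with DESeq2 size factors, 0.0038 with DESeq2, 0.014 with no filter, 0.013 in the first table alone, 0.0056 in the compared groups alone, 0.0057 without control replicate 1, and ran from -0.030 to 0.026 with single libraries left out. AKR1B10 with cepharanthine over control ran from -3.33 to 2.33 (2.33 without control replicate 1). Between cepharanthine and evodiamine, AKR1C3 ran from -0.52 to 0.016 and AKR1A1 from -0.053 to 0.023, with 0.014 for AKR1A1 without cepharanthine replicate 2. With sanguinarine added to panobinostat, AKR1C2 ran from -0.0064 to 0.38 and AKR1C3 from -0.18 to 0.50, and between the combinations AKR1C3 ran from -0.56 to 0.12, with sanguinarine and panobinostat replicate 2 left out at the changed sign. The fall of AKR1A1 with sanguinarine added to panobinostat did not pass in the compared groups alone (adjusted p = 0.121). The cause of these shifts was not tested. With a replicate block, the genes called numbered 4 for sanguinarine added to JQ1, 2 for panobinostat and 6 for JQ1 over panobinostat. No call on the 6 genes changed, where AKR1B10 is again included and nothing is read from it. Counts near 0 limit what can be said of AKR1B10.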
